A study of Mus musculus with 2 samples.

Results

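The genes described here encode proteins that write, copy, read and remove DNA methylation: the writers Dnmt1, Dnmt3a and Dnmt3b, the maintenance factors Uhrf1 and Hells, the reader Mbd1, the oxidases Tet1, Tet2 and Tet3, and the glycosylase Tdg. These 10 genes, of 49554 in the gene table used, were chosen by name, with earlier results of these data known. Their data are the CpG cytosines measured in both libraries from 5000 bp before to 5000 bp after each gene, which came to 2652 of 3026647 cytosines. The assay was RRBS (reduced representation bisulfite sequencing): DNA is cut with MspI at CCGG and bisulfite turns unmethylated cytosines, but not methylated ones, into bases read as T. The DNA came from peripheral blood cells of mice. There were 2 libraries, 1 labelled WT (wild type) and 1 labelled I-PpoI, a homing endonuclease that cuts DNA and that the study expressed in the kidney's proximal tubular epithelial cells. The sources used here give no age, sex or strain of the mice and no driver of the endonuclease. With 1 library a group there is no replicate, so the Fisher's exact tests below compare the reads of these libraries and not the conditions.

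Dnmt3a and Dnmt3b place methyl groups on new sites, and Dnmt1 copies the pattern to the new strand after replication, with Uhrf1 guiding it to hemimethylated DNA and Hells opening chromatin for it. Mbd1 binds methylated CpG and represses transcription. Tet enzymes oxidise 5-methylcytosine, and Tdg cuts out the later oxidation products so that repair restores an unmethylated cytosine. Bisulfite does not separate 5-methylcytosine from its first oxidation product, 5-hydroxymethylcytosine, so a level below is the sum of both.

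The sequences of start sites are shown first, because their CpGs and CCGG sites are what the assay reads there. They are shorter than the 2000 bp promoter stretches whose levels follow, and hold a share of their cytosines, 26 of 91 at Tet1 for example. RefSeq promoter sequences of GRCm38.p6, 250 bases before to 50 after a start site, were matched for 9 of the 10 genes and hold 14 start sites. Mbd1 had no matched sequence. Each is printed on the gene's own strand, and capitals mark the CpGs measured in at least 1 strand of both libraries. Dnmt1 is shown with its dense start site and with its outermost one, which holds 2 CpGs, none of them measured. Uhrf1, Hells and Tet1 are shown because their promoter levels differed most. Uhrf1 has both of its start sites printed: the promoter level is centred on the outer one, whose window had 8 measured cytosines at 13.0% (WT) and 9.81% (I-PpoI), and the inner window had 64 at 3.57% and 2.51%. Tet3 is shown for the start site inside the gene, at 9.20% and 6.73%.
Dnmt1, chr9:20952574-20952873, minus strand: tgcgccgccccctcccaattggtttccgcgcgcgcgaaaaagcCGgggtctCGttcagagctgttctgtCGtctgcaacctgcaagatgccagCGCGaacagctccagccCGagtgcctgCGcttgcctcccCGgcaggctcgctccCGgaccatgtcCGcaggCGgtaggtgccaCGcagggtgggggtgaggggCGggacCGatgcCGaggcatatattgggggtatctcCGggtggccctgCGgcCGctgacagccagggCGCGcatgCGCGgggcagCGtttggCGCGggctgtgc
Dnmt1, outermost, chr9:20959839-20960138, minus strand: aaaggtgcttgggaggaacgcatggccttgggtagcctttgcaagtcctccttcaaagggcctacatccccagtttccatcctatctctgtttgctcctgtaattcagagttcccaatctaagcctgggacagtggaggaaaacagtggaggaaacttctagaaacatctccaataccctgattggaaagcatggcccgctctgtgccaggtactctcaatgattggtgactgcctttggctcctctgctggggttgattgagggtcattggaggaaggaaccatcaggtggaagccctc
Uhrf1, outer, chr17:56303087-56303386, plus strand: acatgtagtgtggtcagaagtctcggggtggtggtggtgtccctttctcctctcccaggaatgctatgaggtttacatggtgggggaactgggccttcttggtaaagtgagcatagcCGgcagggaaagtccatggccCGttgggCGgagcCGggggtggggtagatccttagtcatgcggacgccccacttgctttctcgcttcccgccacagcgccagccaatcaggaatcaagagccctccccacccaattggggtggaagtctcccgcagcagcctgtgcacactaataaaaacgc
Uhrf1, inner, chr17:56304063-56304362, plus strand: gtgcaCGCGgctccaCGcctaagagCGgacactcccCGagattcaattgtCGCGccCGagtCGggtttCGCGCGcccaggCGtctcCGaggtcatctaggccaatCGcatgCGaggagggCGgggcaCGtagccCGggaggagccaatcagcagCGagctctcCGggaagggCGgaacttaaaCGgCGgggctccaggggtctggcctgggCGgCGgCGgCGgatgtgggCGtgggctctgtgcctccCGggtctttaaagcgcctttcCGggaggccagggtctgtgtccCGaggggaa
Hells, chr19:38930740-38931039, plus strand: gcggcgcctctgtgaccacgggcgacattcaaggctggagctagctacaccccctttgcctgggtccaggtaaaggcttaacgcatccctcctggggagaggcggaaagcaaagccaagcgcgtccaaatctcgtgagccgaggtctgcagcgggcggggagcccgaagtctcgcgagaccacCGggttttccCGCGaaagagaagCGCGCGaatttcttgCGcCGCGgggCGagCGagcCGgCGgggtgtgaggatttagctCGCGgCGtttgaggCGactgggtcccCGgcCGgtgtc
Tet1, chr10:62887275-62887574, minus strand: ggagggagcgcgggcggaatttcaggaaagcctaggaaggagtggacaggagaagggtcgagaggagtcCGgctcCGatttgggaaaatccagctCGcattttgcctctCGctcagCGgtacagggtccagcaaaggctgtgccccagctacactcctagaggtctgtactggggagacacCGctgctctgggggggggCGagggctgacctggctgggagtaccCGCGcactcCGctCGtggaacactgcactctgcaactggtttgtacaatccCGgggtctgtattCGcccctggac
Tet3, internal, chr6:83441629-83441928, minus strand: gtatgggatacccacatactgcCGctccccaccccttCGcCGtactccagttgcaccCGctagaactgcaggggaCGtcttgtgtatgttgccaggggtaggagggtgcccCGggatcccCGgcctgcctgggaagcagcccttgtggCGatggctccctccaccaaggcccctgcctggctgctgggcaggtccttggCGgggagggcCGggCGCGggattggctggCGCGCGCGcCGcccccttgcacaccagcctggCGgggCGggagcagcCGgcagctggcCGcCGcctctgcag

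Apart from the outermost Dnmt1 window, the printed windows are rich in CpG, with 33 in the dense Dnmt1 window, 12 in the outer and 33 in the inner Uhrf1 window, 34 in Hells, 17 in Tet1 and 22 in Tet3, against a median of 7 over 32619 promoters of the same length. The Tet2 window, with 57 CpGs, was the richest of the 14, and 0.153% of all promoters hold as many. Dnmt3a has 46 and 47 CpGs at its 2 upstream start sites and 18 at the third. The letters CCGG, which read the same on both strands and contain the measured CpG, occur in 12 of the 14 windows of these genes and in 53.1% of all promoters.

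The median coverage of a cytosine with at least 10 reads was 53 reads (WT) and 49 (I-PpoI). The I-PpoI library had fewer such cytosines, 3141563 against 3569384, and a lower summed coverage, 203696298 against 245819308. Over all shared cytosines the WT mean was 38.6% and the I-PpoI mean 37.1%, while the level of all reads pooled was 30.6% and 24.3%. As a check of the tissue label, promoters of blood cell markers were low at 3 of 4 measured genes, with Coro1a at 3.95% (WT) and 3.21% (I-PpoI), Lcp1 at 3.08% and 2.33%, and Laptm5, with 4 cytosines, at 1.67% and 0%. Spi1, a myeloid transcription factor, stood against that pattern at 97.7% and 94.6%. Promoters of the kidney tubule genes Slc5a2, Slc12a1, Cubn and Aqp2 lay between 88.6% and 98.5% in WT and between 82.2% and 96.9% in I-PpoI, and those of Lrp2 and Pax8 at 5.04% and 25% in WT. Blood is a mixture of cells, so a change in the share of a cell type and a change within cells cannot be told apart.

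The promoters were almost unmethylated in both libraries, and none was called. A promoter is the stretch within 1000 bp of the gene's 5' end, and a region was called when Fisher's exact test on its methylated and unmethylated reads gave a Benjamini-Hochberg adjusted p under 0.01 and the level differed by at least 10 percentage points. Of 8 promoters with at least 3 cytosines, 0 were called lower in I-PpoI and 0 higher, against 2.83% and 0.332% of 22557 promoters in the genome. No promoter of the 8 reached 10% in WT, so none had room to be called lower by 10 points. By the adjusted p alone, Uhrf1, Hells and Tet1, 3 of the 8, were lower, against 25.1% of promoters in the genome, and 0 were higher, against 1.47%. With cytosines weighted equally 0 of the 8 were called, against 2.24% lower and 0.270% higher in the genome, and with I-PpoI levels at WT coverage 0, against 2.38% and 0.275%. Such weighting changed the size of the difference alone, and the adjusted p stayed that of the pooled reads. The median pooled difference was -0.40 points over the 8 and -0.68 over all promoters.

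Among the writers, Dnmt3b, the embryonic de novo enzyme, had a promoter level of 4.07% in WT and 3.67% in I-PpoI over 203 cytosines. Dnmt1 has 2 measured cytosines at its outermost 5' end, at 95.6% and 90.0%, too few to test. At its dense start site, 69 cytosines had 4.74% in WT against 4.04% in I-PpoI. Dnmt3a had no measured cytosine at its outermost 5' end, while its listed start site at chr12:3806980 held 367 cytosines at 3.23% and 3.39%. The start site of its shorter transcripts, at chr12:3891744, held 46 cytosines at 5.94% and 5.43%. Apart from the outermost 5' end of Dnmt1, the writers' start sites thus lay between 3% and 6% in both libraries.

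The maintenance factors had the largest promoter differences with Tet1. The promoter of Uhrf1, which reads hemimethylated CpG, had a WT level of 3.95% and an I-PpoI level of 2.55% over 128 cytosines, a difference of -1.40 points (Newcombe 95% bounds -1.81 and -1.0, for counting error only; Fisher's exact test, Benjamini-Hochberg adjusted p = 3.1e-10). Of those cytosines 65 were lower in I-PpoI, 27 higher and 36 equal. Hells, a chromatin remodeller, stood at 5.89% and 4.18% over 76 cytosines (-1.71 points; Fisher's exact test, adjusted p = 2.3e-04). The Hells difference was -0.056 points with forward-strand cytosines alone and -3.36 with reverse-strand cytosines alone. Mbd1, the reader, stood at 3.66% and 3.63% over 96 cytosines, and its interval of -0.56 to 0.51 points includes 0.

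Among the erasers, the Tet1 promoter had 4.91% in WT against 3.47% in I-PpoI over 91 cytosines (-1.43 points; Fisher's exact test, adjusted p = 8.7e-05). Tet2, the oxidase most often mutated in blood disorders, had 3.85% and 3.45% over 167 cytosines, and Tet3 had 3.57% and 3.50% over 162. Tdg had the lowest level of the 8, 1.38% and 1.74% over 102 cytosines. It was the only promoter of the 8 with a higher pooled level in I-PpoI (0.36 points, Fisher's exact test, adjusted p = 0.101). With cytosines weighted equally, the 8 ran from 2.51% at Tdg to 9.51% at Hells in WT, and from 2.57% to 7.70% in I-PpoI. By that measure Tdg and Tet2 were both higher in I-PpoI, each by 0.06 points, and 6 of the 8 were lower. The start site inside Tet3, beside the start of the long noncoding RNA gene B230319C09Rik, had 10.4% in WT against 8.19% in I-PpoI over 90 cytosines (-2.19 points; Fisher's exact test, adjusted p = 4.1e-06). In all, 13 of the 14 listed start sites could be tested and 0 were called, against 2.35% lower and 0.248% higher of 18563 in the genome. Apart from the internal Tet3 site, those tested were under 10% in WT, so they had no room to be called lower. The sites are not all distinct: those tested at Dnmt1 hold the same 69 cytosines.

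**Figure D1:**
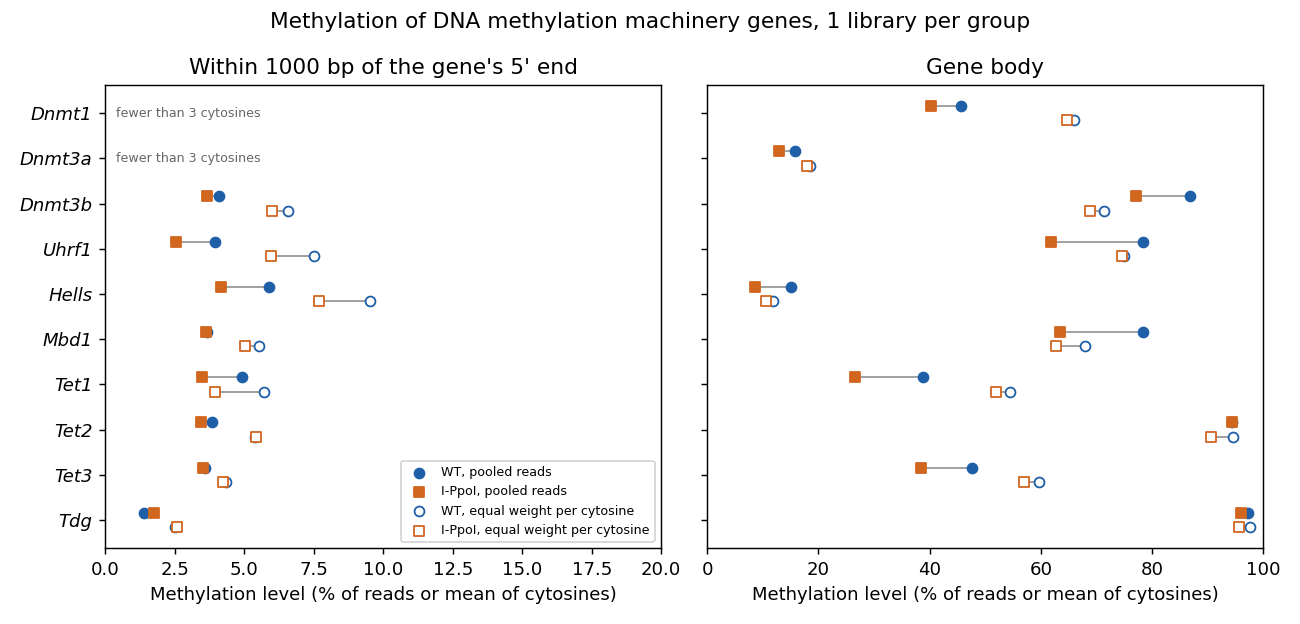
Methylation level in percent (horizontal axis) of each gene near its 5' end and in its body, for the WT and I-PpoI libraries, as pooled reads and as the mean over cytosines. The 8 promoters with data lie below 10%, while the bodies run from 15.2% to 97.3% in WT by pooled reads.

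Within the start sites, much of what methylation there was sat at CCGG. In the promoter sequences, cytosines outside CCGG pooled to 1.28% in WT and 0.432% in I-PpoI at Uhrf1, 1.78% and 0.694% at Tet1, 2.77% and 0.833% at Hells, and 1.06% and 0.472% at Dnmt1. The internal Tet3 start site was the highest, at 5.91% and 2.39%. Dnmt3a was at 0.605% and 0.494%, Tet2 at 0.896% and 0.653%, and Tdg at 0.810% and 0.704%. Dnmt3b, at 0.291% and 0.333%, was the exception among the 9 genes in that its I-PpoI level was the higher. Over all promoter sequences, cytosines outside CCGG pooled to 2.76% in WT and 1.82% in I-PpoI. These differences outside CCGG were not tested.

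At CCGG the levels were many times higher in both libraries. By pooled reads they ran from 18.4% at Dnmt3b to 37.1% at Tet1 in WT. In I-PpoI they ran from 17.3% at Dnmt1 to 27.4% at Tet1. With cytosines weighted equally, Tet1 was instead the lowest, at 21.1% in WT and 14.7% in I-PpoI. Tdg was then the highest, at 49.5% in WT and 48.9% in I-PpoI. Tet1 had 3 CCGG cytosines, with 151 reads in WT and 124 in I-PpoI, and Tdg had 4. The order of the genes thus depends on the weighting. Over all promoter sequences, CCGG cytosines pooled to 24.2% in WT and 23.2% in I-PpoI. Of 1673 cytosines near start sites of the 10 genes, 1528 (91.3%) were under 20% in both libraries and 828 (49.5%) had no methylated read in either. A group of 49, found after the values were seen, was over 80% in both and included at least 1 in each of the 10 genes. The cytosine on the opposite strand of the same CpG was measured for 48 of them and was over 80% in both libraries at 0, and under 20% in both at 45. At Uhrf1, for example, the forward cytosine at chr17:56304311 was methylated in 53 of 53 WT reads and 41 of 45 I-PpoI reads, while its partner stood at 2.94% and 0%. The median coverage of the 49 was 21 reads (WT) and 24 (I-PpoI), against 84 and 80 for the other cytosines near start sites. All 20 of them that fall in the promoter sequences lie in CCGG, the site the library's enzyme cuts, against 62 of 498 others (12.4%). Such cytosines are not particular to these genes. Over all promoter sequences, 20.2% of 55907 CCGG cytosines were over 80% in both libraries, against 0.904% of cytosines outside CCGG. Whether the cut site had a part in these levels was not tested.

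The gene bodies, unlike the promoters, held most of the methylated reads and showed 3 calls. A body is the gene between the 1000 bp regions at its ends. By pooled reads the bodies of Uhrf1, Mbd1 and Tet1 fell in I-PpoI, 3 of 10 measured bodies against 8.88% of 19694 in the genome. None of the 10 rose, against 0.396%. By the adjusted p alone 8 of 10 were lower, against 40.4% of bodies in the genome, and 0 higher, against 1.94%. The median difference of the 10 was -7.92 points by pooled reads, against -2.44 over all bodies. With every cytosine weighted equally it was -2.22 points against -1.60, and 0 of the 10 bodies were called, against 3.89% lower and 0.289% higher in the genome. With each I-PpoI level weighted by the WT coverage of its cytosine 0 were called too, against 4.05% and 0.330%. Both weightings changed the size of the difference alone, and the adjusted p stayed that of the pooled reads.

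Uhrf1 had the largest fall. Its body level was 78.4% in WT, from 3121 reads over 59 cytosines, and 61.8% in I-PpoI, from 2046 reads, a difference of -16.6 points (Newcombe 95% bounds -19.1 and -14.0; Fisher's exact test, Benjamini-Hochberg adjusted p = 1.9e-36). The mean over the same cytosines was 74.9% and 74.7%, and with each I-PpoI level weighted by the WT coverage the difference was -0.23 points. The 43 cytosines over 80% (by the mean of both libraries) averaged 96.8% in WT and 97.3% in I-PpoI. Their reads went from 2452 in WT to 1257 in I-PpoI, or from 78.6% to 61.4% of the body's reads, while reads of the 12 cytosines under 20% went from 568 to 706. So the pooled level differed while the levels of single cytosines barely did, with 19 lower, 21 higher and 19 equal. Without the cytosines within 1000 bp of a listed start site, an alternative added after the data were seen, the pooled difference was -1.47 points (Fisher's exact test, adjusted p = 0.131). With reverse-strand cytosines alone it was -9.08 points and not called, and with forward-strand cytosines alone -25.1.

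Mbd1 had the second largest fall, from 78.4% (1517 reads over 23 cytosines) to 63.5% (789 reads), a difference of -14.9 points (Newcombe 95% bounds -18.9 and -11.0; Fisher's exact test, adjusted p = 2.6e-13). The equal-weight levels were 67.9% and 62.7%, and the difference at WT coverage was -3.53 points. Reads of its 13 cytosines over 80% went from 1082 to 440, and their mean level was 97.7% and 96.0%. The 5 cytosines between 20% and 80% by the mean of both libraries averaged 51.0% and 32.4%. They include chr18:74275586, which went from 100% (40 reads) to 33.3% (15 reads). Sorting by that mean moves cytosines over 80% in 1 library alone into this class, so the difference of a class depends on the sorting.

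Tet1, the third called body, fell from 38.8% (10948 reads over 172 cytosines) to 26.6% (7970 reads), a difference of -12.2 points (Newcombe 95% bounds -13.5 and -10.8; Fisher's exact test, adjusted p = 1.6e-67). The equal-weight levels were 54.5% and 52.0%, and the difference at WT coverage was -1.86 points. Reads of its 82 cytosines over 80% went from 3625 to 1759, and those of its 66 cytosines under 20% from 6168 to 5383. Single cytosines were lower more often than higher, 85 against 63. With a minimum of 20 reads per cytosine the pooled difference was -7.03 points, under the size needed for a call.

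**Figure D2:**
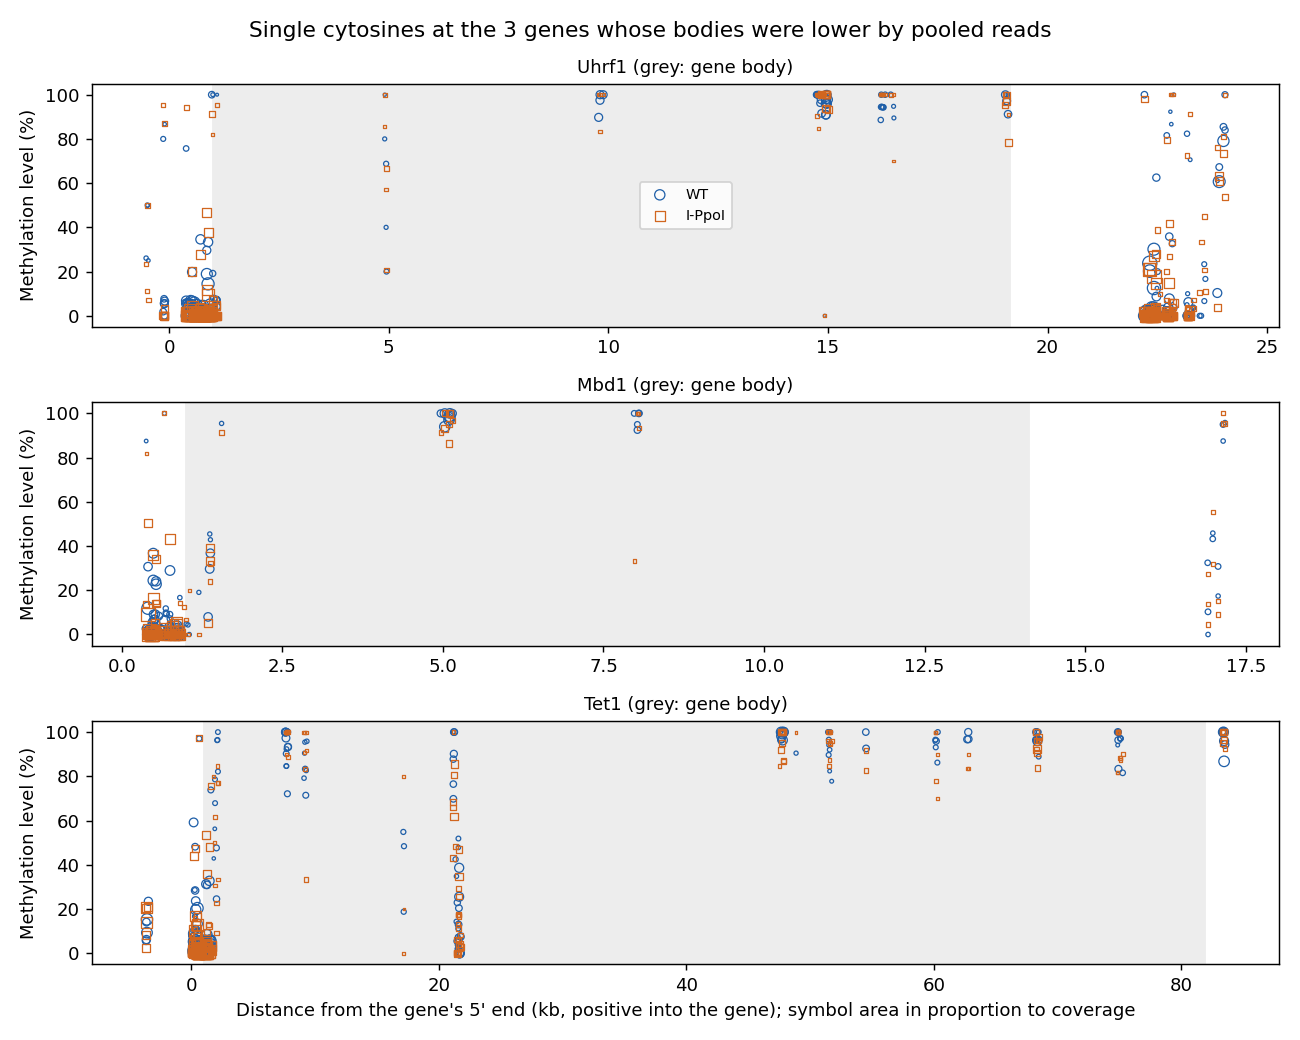
Level in percent of single cytosines (vertical axis) by distance from the 5' end in kb at Uhrf1, Mbd1 and Tet1, with symbol area in proportion to coverage and the gene body shaded. Cytosines over 80% in WT mostly stay high in I-PpoI, but their I-PpoI symbols are smaller, as in the drop from 2452 to 1257 reads at Uhrf1.

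Among the writers' bodies, none was called. Dnmt3b stood closest, with 86.8% in WT against 77.1% in I-PpoI over 40 cytosines (-9.71 points; -2.56 by equal weights). Dnmt1 was at 45.7% and 40.2% over 202 cytosines (-5.41, -1.17 by equal weights). Its body as defined holds its dense start site, with 69 of those cytosines and 9039 of 16418 WT reads. Without cytosines within 1000 bp of a listed start site the Dnmt1 difference was -0.65 points. Dnmt3a, whose body as defined holds its listed start sites, was at 15.9% and 12.9% over 561 cytosines (-3.01, -0.68 by equal weights). Without the cytosines near those sites its difference was larger, -6.08 points. Hells, also low in its body as defined, stood at 15.2% and 8.57% over 23 cytosines (-6.59, -1.29 by equal weights). Of these, 20 were under 20% by the mean of both libraries, and the 2 over 80% averaged 97.9% and 92.9%. Most lie near the start site, since too few were left to measure without cytosines within 1000 bp of a listed start site.

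Among the other erasers, Tet3 had 47.7% in WT against 38.5% in I-PpoI over 265 cytosines (-9.24 points, -2.66 by equal weights). The pooled value was just under the minimum difference. The Tet3 body as defined holds the internal start site. Without cytosines within 1000 bp of a listed start site its pooled difference was -5.84 points. By the mean of both libraries, its 40 cytosines between 20% and 80% averaged 56.7% and 42.9%, while the 136 over 80% averaged 96.5% and 96.3%. As at Mbd1, the difference of a class depends on this sorting. Tet2 behaved the other way round from Uhrf1: the pooled levels were 94.5% and 94.3%, a difference of -0.10 points, but the equal-weight levels were 94.5% and 90.6%, a difference of -3.91. The 4 of its cytosines that lay between 20% and 80% by the mean of both libraries averaged 85.8% and 46.7%. Tdg was the most methylated body, at 97.3% and 96.0% over 28 cytosines.

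**Figure D3:**
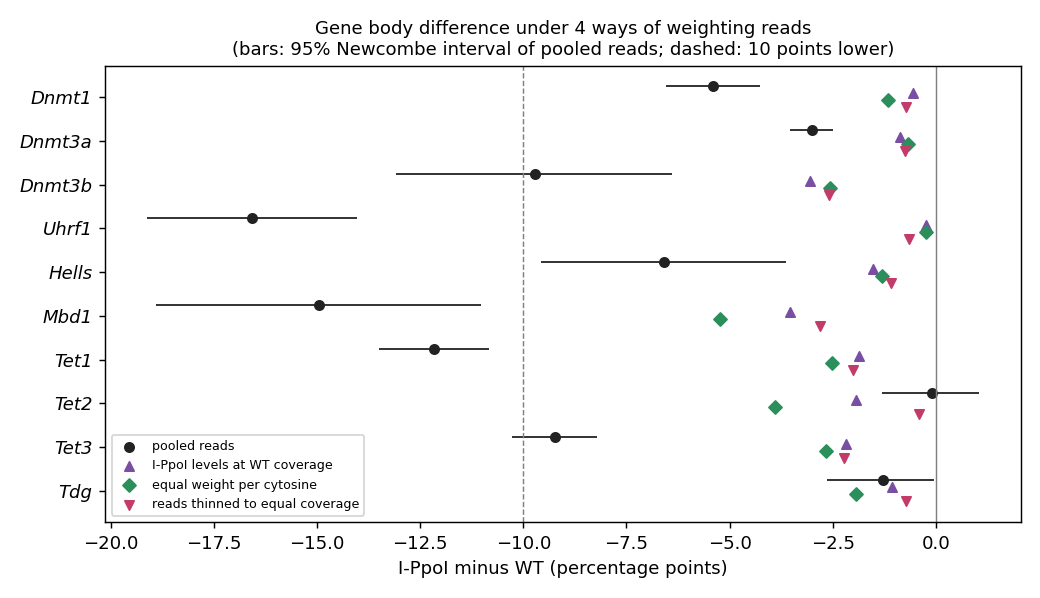
Difference in body level, I-PpoI minus WT, in percentage points (horizontal axis) for each gene under 4 ways of weighting reads, with the 95% Newcombe interval of the pooled value as a bar. The pooled value of Uhrf1 is -16.6 points and its equal-weight value -0.25, while Tet2 goes from -0.10 to -3.91.

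The reads themselves were spread unevenly over methylated and unmethylated cytosines. Over the 2652 cytosines of these genes, the median ratio of I-PpoI to WT coverage was 0.963 at cytosines under 20%, 0.901 between 20% and 80% and 0.667 over 80%. Over the genome the ratios were 0.925, 0.800 and 0.688. In the bodies, the summed reads over 80% had ratios from 0.407 at Mbd1 to 0.848 at Dnmt3a. The same pattern appeared in which cytosines a library listed at all, since a cytosine needed 10 reads to be listed. Of 997 cytosines near these genes that were over 80% in WT, 317 (31.8%) were listed by the WT library alone, against 26.3% over the genome. Of 1826 under 20% in WT, 49 (2.68%) were, against 4.42%. Dnmt1 had the largest such share of all its WT cytosines, 80 of 295, and I-PpoI alone listed 92 of its own 2744 (3.35%). Why methylated cytosines had fewer I-PpoI reads was not tested, and the bodies are not called where the weights are made equal.

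**Figure D4:**
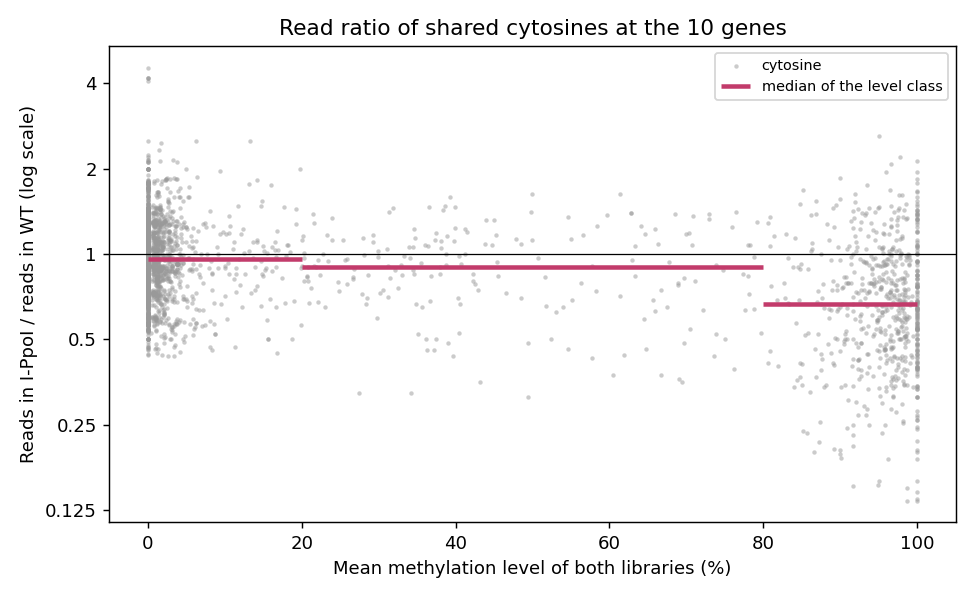
Ratio of I-PpoI to WT coverage (vertical log axis) against the mean methylation level of both libraries in percent, 1 point per cytosine of the 10 genes. The points move below 1 toward the right, with median ratios of 0.963 under 20% and 0.667 over 80%.

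Single cytosines differed little in most places. Of the 2652, 921 (34.7%) were lower in I-PpoI, 636 (23.98%) higher and 1095 (41.3%) equal, against 41.7%, 29.2% and 29.1% over the genome. The mean difference was -1.09 points, against -1.49. The 197 cytosines between 20% and 80% by the mean of both libraries went from 49.2% to 42.2% on average. That is a difference of -7.05 points, against -6.03 over the genome.

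Windows of 1000 bp on a fixed grid gave 1 call, where a call needed 25 points or more and the same adjusted p as for regions. Of 103 windows with at least 3 cytosines, 1 fell, against 1.00% of 165854 in the genome, and 0 rose, against 0.0742%. By the adjusted p alone 17 (16.5%) passed, against 13.8% lower and 1.76% higher over the genome, and all 17 were lower in I-PpoI. The called window is chr6:83422001-83423000 in the body of Tet3, the oxidase that acts in the egg and in differentiated cells, 34707 bp from its 5' end at the window's centre. It fell from 91.3% in WT (46 reads) to 51.8% in I-PpoI (56 reads), a difference of -39.5 points (Newcombe 95% bounds -53.3 and -22.4; Fisher's exact test, adjusted p = 1.7e-04), and all 4 of its cytosines were lower. All 4 lie on the forward strand, since the difference was the same -39.5 points with that strand alone. A read over several of them is counted at each. The adjoining window, chr6:83421001-83422000, stood at 88% and 90.8%. With a minimum of 20 reads per cytosine the called Tet3 window held too few cytosines to be measured, and 0 windows were called.

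In the other genes, where no window was called, the largest difference is given for each. It was -17.1 points at Tet1 in chr10:62866001-62867000, near the start of the noncoding gene Gm51805, which stood at 76.8% and 59.7% with 8 of 10 cytosines lower. It was -14.4 at Uhrf1 in chr17:56302001-56303000, just upstream of the gene, at 38.0% and 23.6%. Dnmt1 had -14.0 in chr9:20917001-20918000, at 96.9% and 82.9%. Mbd1 had -14.0 in chr18:74275001-74276000, at 97.4% and 83.3%, with 228 reads in WT and 66 in I-PpoI. Tet2 had -14.0 in chr3:133534001-133535000, at 92.9% and 78.9%, with 490 and 142 reads. Dnmt3a had -9.11 in chr12:3913001-3914000, at 92.7% and 83.6%, and there all 9 cytosines were lower. In Dnmt3b, Hells and Tdg no window differed by more than 4 points (-3.93, -2.08 and 1.56).

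**Figure D5:**
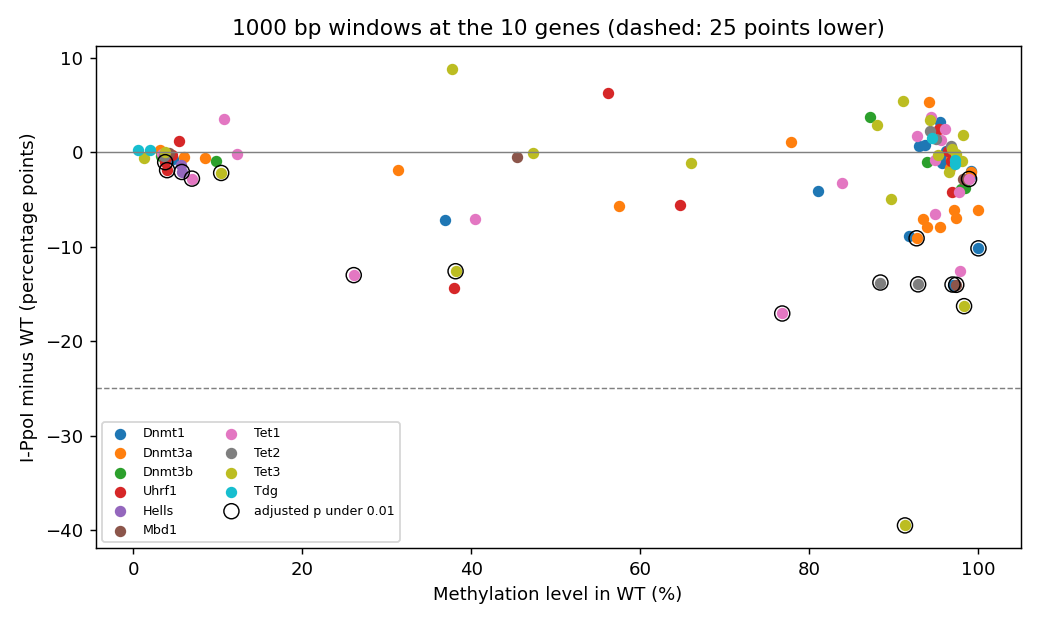
Difference between libraries in percentage points (vertical axis) against the WT level in percent, 1 point per 1000 bp window of the 10 genes, with the dashed line at 25 points lower and circles around windows at an adjusted p under 0.01. The Tet3 window at -39.5 points is the one below the line, and 73 of 103 windows lie below 0.

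By the same rule as for windows, 7 of the 2652 single cytosines fell and 1 rose, smaller shares than the 0.429% and 0.0561% over the genome. Tet3 had 3 that fell: chr6:83424253 from 74.3% to 0% (35 and 16 reads), chr6:83373919 from 100% to 33.3% (24 and 18 reads) and chr6:83381124 from 100% to 47.8% (44 and 23 reads). Mbd1 had 1 at chr18:74275586, from 100% to 33.3% (40 and 15 reads). Tet2 had 1 at chr3:133534166, from 87.5% to 33.3%, whose partner on the other strand stood at 100% and 71.4%. These cytosines lie in gene bodies. The Uhrf1 cytosine at chr17:56325814, from 62.5% to 28%, lies past the gene beside the start of the demethylase gene Kdm4b, and its partner was at 8.70% and 14.7%.

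The called Hells cytosine, chr19:38930980, lies 10 bases before the start site, in a CCGG of the printed sequence. It fell from 79.6% (54 reads) to 43.2% (88 reads), while its partner stood at 10% and 10.1%. The cytosine that rose lies in Dnmt3a at chr12:3808675, from 48.5% (33 reads) to 92.3% (39 reads), while its partner was at 50.9% and 30.0%. So in both genes 1 strand was called while its partner stood at another level in I-PpoI. Over the 1114 CpGs measured on both strands, the strands lay within 10 points of each other at 84.2% of CpGs in WT and 82.6% in I-PpoI. Just 1 CpG was lower by at least 25 points on both strands and 1 higher.

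No cytosine was called in Dnmt1, Dnmt3b, Tet1 or Tdg. The largest differences there were chr9:20924333 in Dnmt1, 73.9% and 11.1%, chr2:153650789 in Dnmt3b, 69.2% and 10.5%, chr10:62870315 in Tet1, 6 of 32 reads and 8 of 10 reads, and chr10:82644352 in Tdg, 22 of 22 reads and 8 of 10 reads.

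Outside the genes, flanks 1000 to 5000 bp from each end held few cytosines and were not tested. The downstream flank of Uhrf1, which holds the start of Kdm4b, had 146 cytosines at 8.08% in WT and 7.02% in I-PpoI. The 6 upstream of Tet3 were at 91.0% and 96.5%, and the 6 upstream of Tet1 at 12.5% and 15.1%. The 7 at the far end of Tet1 were at 95.9% and 98.0%.

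Of 33 other genes of the pathway (readers, cofactors, repair enzymes and methyl donors), 29 promoters were measured and 0 were called, against 2.83% lower over the genome, but 3 of the 29 had a WT level of at least 10% and so room to be called lower, against 40.0% of all promoters. They had a median difference of -0.29 points. By the adjusted p alone 6 were lower (25.1% over the genome), among them Uhrf2, the paralog of Uhrf1, at 11.7% and 8.50%, and Idh1, at 6.12% and 3.87%. The promoters with the most reads, Mat2a, which makes the methyl donor S-adenosylmethionine, and Mbd2, a reader, were at 2.79% and 2.33%, and 4.57% and 4.19%. The promoter of Dnmt3l, the catalytically inactive partner of the de novo enzymes, was at 87.2% and 88.2% over 9 cytosines. Of 24 bodies measured, 1 was called lower (8.88% over the genome): Smug1, a glycosylase, fell from 40.9% to 20.1% by pooled reads (-20.8 points; Fisher's exact test, adjusted p = 6.2e-63), with -1.80 by equal weights and no call. The median body difference was -2.97 points, and -1.44 by equal weights.

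The 3 protein-coding genes whose bodies lay nearest to that of Uhrf1, by Euclidean distance over the pooled and equal-weight levels of both libraries among 11286 bodies, were Frmpd4, at 77.0% and 64.0% pooled, Iqca1l, at 74.6% and 62.9%, and Kcna5, at 77.0% and 61.3%. Their equal-weight differences were -3.46, -0.85 and -1.86 points. Since these levels chose the 3 genes, their likeness to Uhrf1 is a description and supports nothing.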

How the data were processed

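RRBS was measured in 2 libraries, 1 WT and 1 I-PpoI. Per the file headers, the authors deposited for each CpG cytosine and strand the count of reads (coverage, at least 10) and the percent of reads with C and T. Percent times coverage was whole, within 1e-06, at 100% of cytosines, which gave methylated read counts. methylKit was used, per the submitters' processing notes, with no version given. Aligner, genome build and duplicate removal: not given in the sources used here. Of cytosines inside RefSeq promoter sequences of GRCm38.p6, 99.9% lay on a CG.

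Cytosines in both libraries on the autosomes and X were used, without those above the 99.9th percentile of coverage (284 reads in WT, 252 in I-PpoI). Regions needed 3 cytosines. The 5' end came from the strand of the RefSeq promoter table, except for Mbd1, where the end with more cytosines was taken; listed start sites were an alternative chosen after seeing the data. Two-sided Fisher's exact tests were adjusted by Benjamini-Hochberg over all regions of a kind in the genome. A read over several cytosines is counted at each, so tests and 95% Wilson and Newcombe intervals cover counting error only and are too narrow. The tests were run on simulated data with planted changes, in which the reads of a region were drawn independently at 1 level. Such data hold no read counted at several cytosines and no uneven coverage within a region, so they cannot judge the tests there. The members and lists were chosen with earlier results of these data known. All 10 members were named; windows and cytosines were named if called, or else by the largest difference in a member. Other pathway genes were named if called, up to 4, or else the 2 with the most reads; those named for the adjusted p alone were picked after seeing them. Alternatives altered the coverage minimum and cap, strand, depth, weighting, thresholds, test, window grid and region size. Python 3.11.15, NumPy 2.4.6, SciPy 1.17.1, pandas 2.3.3, Numba 0.67.0 and Matplotlib 3.10.9 were used.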

Additional observations from a re-analysis of the deposited data

How the results depend on the processing

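The count of 3 bodies called lower became 5 with reverse-strand cytosines alone, where Dnmt1, Dnmt3b and Tet3 were called and Uhrf1, at -9.08 points, was not. It became 7 with a minimum difference of 5 points, and 1 with 15 points, with end regions of 500 bp, with end regions of 2000 bp, and with a Cochran-Mantel-Haenszel test scaled by the spread between cytosines. It became 2 with coverage minimums of 20 reads and of 30 reads, without Tet1 (-7.03 and -5.68 points), and 2 without cytosines within 1000 bp of a listed start site, without Uhrf1 (-1.47 points). It became 0 with equal weights, with I-PpoI levels at WT coverage and with reads thinned to equal numbers. The scaled test kept Tet1 and gave an adjusted p of 0.829 for Uhrf1 and 0.316 for Mbd1. Thinned, the differences were -0.65 points at Uhrf1, -2.82 at Mbd1 and -2.01 at Tet1. The 1 called body among the other pathway genes became 0 with equal weights. The 1 window called lower became 0 with a minimum of 20 reads and with reverse-strand cytosines, under both of which the Tet3 window was not measured. It became 2 with forward-strand cytosines and 3 at 15 points. With reverse-strand cytosines 1 window was called higher. The 7 cytosines called lower became 3 with a minimum of 20 reads, 2 with reverse-strand cytosines and 1 when thinned; the 1 called higher became 0 with reverse-strand cytosines, 0 when thinned and 2 at 15 points. These alternative counts of bodies, windows and cytosines have a share over the genome, given above, under equal weights and WT coverage alone. The other counts thus cannot be set against the genome. No promoter of the 10 genes was called under any alternative run. For the promoters lower by the adjusted p alone, the scaled test gave 5.7e-05 at Uhrf1, 0.00852 at Tet1 and 0.0173 at Hells. With forward-strand cytosines alone, Fisher's exact test gave an adjusted p of 2.7e-04 at Uhrf1, 0.0662 at Tet1 and 0.996 at Hells. The called bodies stayed lower in I-PpoI under each alternative run; the called Tet3 window was recomputed under 3 and the called cytosines were not followed one by one. No paired analysis was possible because each group has 1 library. For the same reason no library could be left out. Depth limits calls at single cytosines with 10 to 20 reads.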
